A study of Mus musculus with 3 samples.

Results

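*Umod*, *Egf*, *Sostdc1*, *Wfdc15b*, *Kng2*, *Klk1* and *Sfrp1* are 7 of the 27998 genes counted in these libraries. They were listed by symbol as transcripts of secreted products of the distal kidney tubule, from the level each had in these same libraries, so their level in those cells is given below as a description. Their UMIs (unique molecular identifiers, 1 for each captured RNA molecule) were summed per library over classes of cells defined by other marker genes. The sums were expressed per 1000000 UMIs of the class (CPM), once in the cells that make these products and, apart from them, in leukocytes. A tubule transcript in leukocytes was read as free RNA or doublets, which were not told apart. This reading was not applied to *Klk1* in plasmacytoid dendritic-like cells, whose source was not tested.

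Kidneys of 2 *Aoah*-/- mice (mouse 2 and mouse 3) and 1 WT mouse (mouse 3) were dissociated for scRNA-seq on day 14 after folic acid (FA) treatment, with 1 library per mouse. The mice were 6 to 8 weeks old according to the labels, every mouse received FA, and no library of an untreated kidney was analysed here. *Aoah* encodes acyloxyacyl hydrolase, which inactivates lipopolysaccharide. It was disrupted in the whole animal on a C57/BL6J background, so the disruption was not limited to tubule cells, and the WT mice were littermates. Because the WT group held 1 library and so gave no spread of its own, no test between genotypes was run. Differences from WT are given as levels or ratios, and only some carry a counting interval or the spread between the *Aoah*-/- libraries. Paired values below are in the order *Aoah*-/- mouse 2 and *Aoah*-/- mouse 3.

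The thick ascending limb of Henle's loop and the distal convoluted tubule reabsorb salt after the proximal tubule, and they also release proteins into urine and blood. *Umod* encodes uromodulin, the most abundant protein of normal urine, and *Egf* encodes the membrane precursor of epidermal growth factor, whose urinary amount is known to fall with tubule damage. *Sostdc1* encodes a secreted antagonist of BMP and WNT signals, *Sfrp1* a secreted WNT antagonist, *Kng2* a kininogen, *Klk1* the tissue kallikrein that releases kinins from kininogens, and *Wfdc15b* a small protein with a WAP four-disulfide core domain, a fold of protease inhibitors.

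The 3 libraries held 25516, 24693 and 23072 barcodes with 158551992 to 167222984 UMIs, and 18202 to 21368 cells per library were kept. *Aoah* itself was counted at 6.06 and 5.68 CPM in the *Aoah*-/- libraries (1014 and 914 UMIs) and 15.3 CPM in WT. The disrupted stretch of the gene is not given in the sources used here, so whether these UMIs lie outside it was not tested. *Aoah*-/- mouse 3 stood apart: its lowest UMI total per barcode was 1672 against 500 in the other libraries, it held 1200 erythroid-like cells against 128 and 310, and no doublet was called in it against 544 and 201. Pairs of libraries shared 109 to 117 barcodes among kept cells. *Slc12a1*, the salt transporter of the ascending limb, stood at 5628, 5517 and 4865 CPM in ascending limb-like cells and at no more than 42.5 CPM in distal convoluted tubule-like cells. *Slc12a3*, the transporter of the distal convoluted tubule, stood at 3289 to 3537 CPM in distal convoluted tubule-like cells and at 9.41 to 31.8 CPM in ascending limb-like cells. Both genes were among the markers used to name these classes, so their levels describe the classes and do not test the names.

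To show where the transcripts analysed start, the 250 bases before the RefSeq start of *Umod*, *Egf* and *Wfdc15b* are given 5′ to 3′ on the strand of the gene, on mouse GRCm38.p6. These 3 genes carry the largest levels in the ascending limb-like cells or the largest differences described below. Capitals mark a match to a motif searched on both strands: GTTAAT, part of the site of HNF1 factors, or AAGGTCA, the site of estrogen-related receptors. The windows lie at chr7:119479263-119479512, chr3:129755323-129755572 and chr2:164221664-164221913, all on the minus strand.
*Umod*: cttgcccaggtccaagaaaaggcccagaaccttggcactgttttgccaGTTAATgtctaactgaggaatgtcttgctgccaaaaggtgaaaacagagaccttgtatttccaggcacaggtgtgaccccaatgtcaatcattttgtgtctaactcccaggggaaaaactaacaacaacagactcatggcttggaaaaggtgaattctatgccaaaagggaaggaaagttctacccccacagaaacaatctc
*Egf*: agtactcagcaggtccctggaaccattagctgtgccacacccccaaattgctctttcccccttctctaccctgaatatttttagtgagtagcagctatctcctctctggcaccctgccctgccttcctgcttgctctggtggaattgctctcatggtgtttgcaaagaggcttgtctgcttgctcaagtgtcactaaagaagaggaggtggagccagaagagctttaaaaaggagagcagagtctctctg
*Wfdc15b*: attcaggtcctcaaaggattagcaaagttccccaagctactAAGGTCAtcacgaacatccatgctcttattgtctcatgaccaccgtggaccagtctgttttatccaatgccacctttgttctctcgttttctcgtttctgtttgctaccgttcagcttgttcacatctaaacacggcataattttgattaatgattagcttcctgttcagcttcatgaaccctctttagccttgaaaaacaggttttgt
GTTAAT stood 202 to 197 bases before the *Umod* start, and 6.43% of 32851 promoters of the same length held it. AAGGTCA stood 209 to 203 bases before the *Wfdc15b* start, and 4.08% of promoters held it. The window of *Klk1*, at chr7:44225110-44225359 on the plus strand, held AAGGTCA on the opposite strand 206 to 200 bases before its start. Neither TATAAA nor GCCNNNGGC, an AP-2 site, was found in the windows of *Umod*, *Egf*, *Wfdc15b*, *Klk1* or *Kng2*, and 12.4% and 13.7% of promoters held them. *Sostdc1* (chr12:36314139-36318452, plus strand) and *Sfrp1* (chr8:23411502-23449632, plus strand) had no entry in the promoter table.

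*Umod* (ENSMUSG00000030963, chr7:119462711-119479282) was counted highest in ascending limb-like cells, at 12431 and 13058 CPM in the *Aoah*-/- libraries and 10759 CPM in WT. More than 1 in every 100 UMIs of these cells was thus a *Umod* UMI. The next class was a cluster led by tubule injury genes, with 4214 and 3862 CPM against 3826 CPM. Distal convoluted tubule-like cells followed with 2225 and 3257 CPM against 2251 CPM, below the injury-led cells in every library. Erythroid-like cells held 341 and 1317 CPM against 239 CPM, the highest value in *Aoah*-/- mouse 3.

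*Egf* (ENSMUSG00000028017, chr3:129677565-129755316) had a different second class. It stood at 3431 and 3549 CPM in ascending limb-like cells of the *Aoah*-/- libraries and 3420 CPM in WT, and at 1711 and 2037 CPM against 1399 CPM in distal convoluted tubule-like cells. The ranges of these classes did not overlap. Injury-led cells, second for *Umod*, held 33.7 and 33.4 CPM of *Egf* against 24.8 CPM. Principal-like cells, named from collecting duct markers, held 64.7 and 99.9 CPM against 49.95 CPM.

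*Wfdc15b* (ENSMUSG00000018211, chr2:164214454-164221660) and *Kng2* (ENSMUSG00000060459, chr16:22985854-23029482) did not differ between the ascending limb-like and distal convoluted tubule-like classes beyond the spread of the libraries. *Wfdc15b* stood at 1482 and 1409 CPM against 1687 CPM in the former and at 1396 and 1561 CPM against 1471 CPM in the latter. *Kng2* stood at 967 and 972 CPM against 1041 CPM in the former and at 1020 and 1144 CPM against 976 CPM in the latter. The classes overlapped for both genes. *Sostdc1* was highest in ascending limb-like cells, with 728 and 853 CPM against 1088 CPM, above the 365 and 454 CPM against 335 CPM of distal convoluted tubule-like cells.

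*Klk1* (ENSMUSG00000063903, chr7:44225360-44229618) had its highest level further along the tubule. Principal-like cells held 11638 and 11126 CPM in the *Aoah*-/- libraries and 10952 CPM in WT, and intercalated-like cells 2805 and 4108 CPM against 2079 CPM. The principal-like cluster was led by *S100g* and *Calb1*, with *Aqp2* and *Aqp3* also among its leading genes. No marker list covered the connecting tubule, so its cells were not told apart from principal cells. The ascending limb-like class held 1919 and 2478 CPM against 3095 CPM and overlapped with the intercalated-like class. The 13 *Klk1b* paralogues, which share sequence with *Klk1* so that reads could be split among them, together held 67.4 and 67.7 CPM against 69.5 CPM in principal-like cells, which was 0.579% to 0.634% of *Klk1*. *Sfrp1* was highest in distal convoluted tubule-like cells, at 801 and 1069 CPM against 588 CPM, and overlapped with the 551 and 718 CPM against 530 CPM of ascending limb-like cells.

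**Figure D1:**
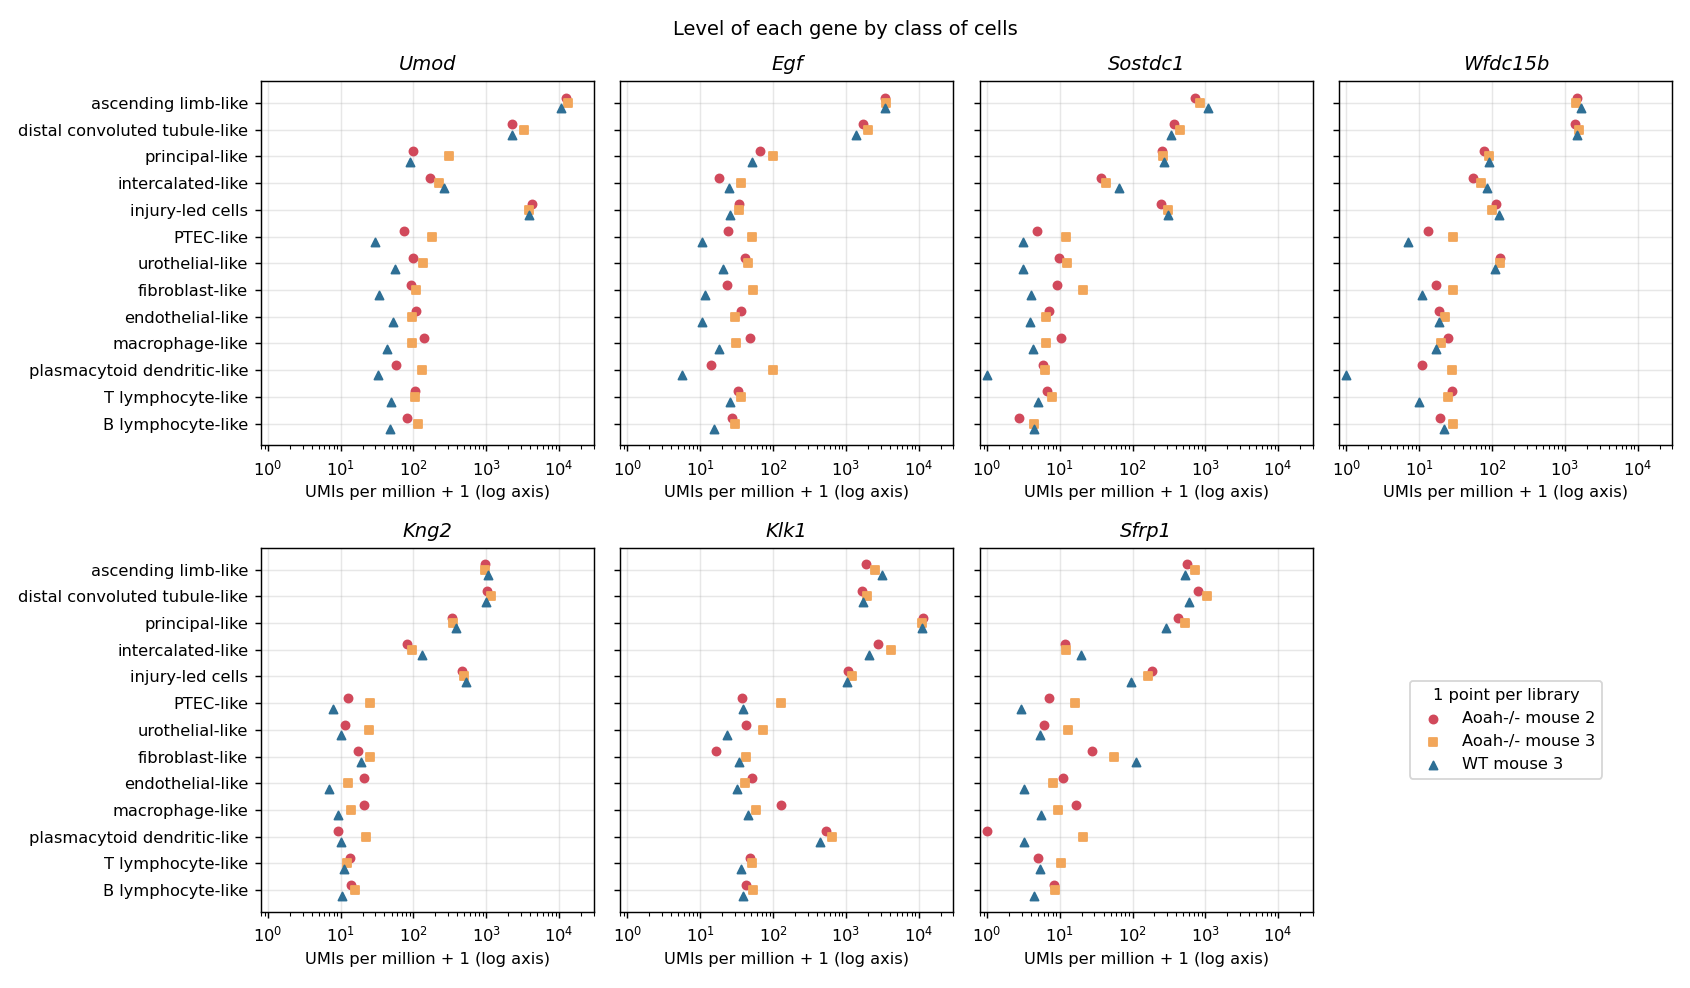
Level of each gene (CPM plus 1, log axis) in each class of cells, with 1 point per library. *Umod* and *Egf* stand highest in ascending limb-like cells (10759 to 13058 CPM and 3420 to 3549 CPM) and *Klk1* in principal-like cells (10952 to 11638 CPM), and the injury-led class stands high for *Umod* and low for *Egf*.

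Within a class the cells were far from alike. Among ascending limb-like cells with at least 2000 UMIs, the median cell held 99.6 and 81.5 *Umod* UMIs per 10000 in the *Aoah*-/- libraries and 88.0 in WT. Cells without any *Umod* UMI made up 1.42% and 1.498% against 0.804%. *Egf* was more uneven in the same cells: 20.2% and 21.2% had no *Egf* UMI in the *Aoah*-/- libraries against 7.24% in WT, and the median cell held 15.5 and 8.96 per 10000 UMIs against 28.1. The 90th percentile ran the other way, at 96.7 and 104 against 81.4, so the *Aoah*-/- libraries held both more cells without *Egf* and cells with more of it, at summed levels that differed by 0.03 on the log2 scale. In principal-like cells, 37.4% and 31.2% against 42.1% had no *Klk1* UMI, while the 90th percentile was 314 and 273 against 357 per 10000.

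Part of the spread of *Egf* among ascending limb-like cells went with claudins, the tight junction proteins that differ between stretches of this segment. Cells with UMIs of *Cldn16* or *Cldn19* and none of *Cldn10* held 6981 and 6577 CPM of *Egf* in the *Aoah*-/- libraries and 4908 CPM in WT. Cells with *Cldn10* alone held 2395 and 1563 CPM against 2613 CPM, and every library showed the same order, with ratios of 2.91 and 4.21 against 1.88. *Sostdc1* split the same way, at 1361 and 1318 CPM against 1724 CPM in the former cells and 416 and 516 CPM against 471 CPM in the latter. *Klk1* and *Sfrp1* were also higher in the *Cldn16* or *Cldn19* cells, with mean ratios of 2.65 (SD 0.411, n = 3) and 2.49 (SD 0.185, n = 3). *Kng2* (mean ratio 1.64, SD 0.150, n = 3) and *Umod* differed less, and the *Umod* ratios were 1.43 and 1.92 against 1.02 in WT. *Wfdc15b* stood on the other side, at 0.964 and 0.941 against 0.689. These groups held 86 to 222 cells per library, and cells with UMIs of both or neither claudin were left out of this split.

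*Lcn2*, which encodes the injury marker neutrophil gelatinase-associated lipocalin, marked ascending limb-like cells with less *Egf* in every library, while *Umod* lay on both sides. Cells with an *Lcn2* UMI held 1684 and 1986 CPM of *Egf* against 1757 CPM in WT, and cells without one held 4721 and 4900 CPM against 3834 CPM. The ratios were 0.357 and 0.405 against 0.458 (mean 0.407, SD 0.0508, n = 3). For *Umod* the ratios lay on both sides of 1, at 0.901 and 1.10 against 1.29. *Klk1* and *Sfrp1* were lower in cells with an *Lcn2* UMI in every library, with ratios of 0.419 and 0.504 against 0.934 and of 0.372 and 0.386 against 0.788. Cells with an *Lcn2* UMI numbered 274 and 309 in the *Aoah*-/- libraries and 61 in WT.

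**Figure D2:**
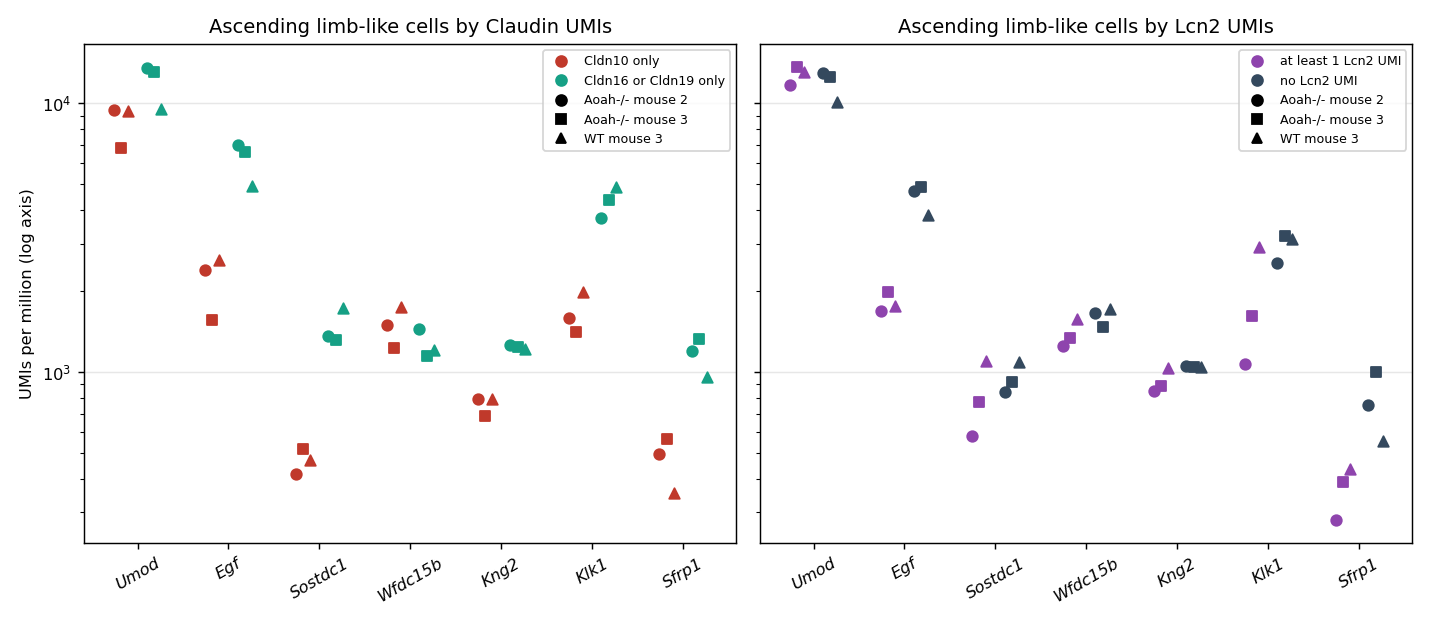
Level of each gene (CPM, log axis) in ascending limb-like cells split by claudin UMIs and by an *Lcn2* UMI, with 1 point per library. *Egf* is higher in *Cldn16* or *Cldn19* cells (4908 to 6981 CPM) than in *Cldn10* cells (1563 to 2613 CPM) and lower in cells with an *Lcn2* UMI (1684 to 1986 CPM) than in cells without one (3834 to 4900 CPM), while the *Lcn2* groups overlap for *Umod*.

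Subclusters of the ascending limb-like class, built without the 7 genes, also differed in these genes. A subcluster of 299 cells led by *Hbegf*, *Lcn2* and *Krt8* held 380 and 619 CPM of *Egf* in the *Aoah*-/- libraries and 932 CPM in WT. A subcluster of 455 cells led by *Pappa2* and *Nos1*, genes known from the macula densa and the cells around it, held 3685 and 3956 CPM against 3263 CPM. The ratio of the former to the latter was 0.103 and 0.156 against 0.286. For *Umod* the same subclusters held 7975 and 11213 CPM against 11596 CPM, and 16654 and 15742 CPM against 13730 CPM, a ratio of 0.479 and 0.712 against 0.845. The highest *Egf* stood in a subcluster of 236 cells led by *Tmem52b* and *Col5a2*, with 7541 and 8390 CPM against 6176 CPM. *Wfdc15b* peaked elsewhere, at 4393 and 4622 CPM in the *Aoah*-/- libraries in a subcluster of 95 cells led by *Rrad* and *Fabp3*, of which 9 cells came from WT.

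The injury-led class set *Umod* and *Egf* furthest apart. Its 534, 735 and 353 cells were led by *Clu*, *Lcn2* and *Krt18*. They held 6 of the 7 ascending limb markers at least 2-fold above the median over clusters, on CPM plus 10. The 2 injury genes among the 10 leading genes kept the cluster from a cell type name. *Egf* was 102 and 106 times lower than in ascending limb-like cells in the *Aoah*-/- libraries and 138 times lower in WT (mean log2 difference -6.79, SD 0.23, n = 3). *Umod* was 2.95 and 3.38 times lower against 2.81 times (mean log2 difference -1.60, SD 0.14, n = 3). The class rested on 185 and 221 *Egf* UMIs against 108, and on 23166 and 25537 *Umod* UMIs against 16666.

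*Egf* in the injury-led cells was at the level counted in leukocytes. The ratio of the injury-led to the leukocyte-like level was 0.866 and 0.865 in the *Aoah*-/- libraries and 1.27 in WT. The same ratio was 35.5 and 35.5 against 81.7 for *Umod* and 4.66 and 4.02 against 9.40 for *Wfdc15b*. After thinning each cell to 1000 UMIs, an *Egf* UMI was found in 3.42% and 3.95% of injury-led cells against 1.44% in WT, and in 3.64% and 3.65% of leukocyte-like cells against 1.38%. The median depths were 6439 to 11595 UMIs in the former cells and 3046 to 3266 UMIs in the latter. In ascending limb-like cells 60.6% and 57.8% against 74.0% had one. Thinned to 2000 UMIs, 6.63% and 8.65% of injury-led cells against 3.95% in WT had an *Egf* UMI. In leukocyte-like cells 5.06% and 6.40% against 2.08% did, less than in injury-led cells in every library. What part of the *Egf* in injury-led cells was free RNA was not tested. Without thinning, the shares were 21.3% and 19.3% against 13.6% in injury-led cells, 9.75% and 11.1% against 3.87% in leukocyte-like cells and 71.4% and 77.3% against 85.7% in ascending limb-like cells. Cells under 1000 UMIs were left out of the shares at 1000 UMIs, up to 8 injury-led, 162 ascending limb-like and 1053 leukocyte-like cells per library. Cells under 2000 UMIs were left out of the shares at 2000 UMIs.

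The other genes were lower in injury-led cells too, by less than *Egf*. *Wfdc15b* was 13.3 and 14.2 times lower than in ascending limb-like cells against 13.5 times in WT. *Sostdc1* was 2.94 and 2.83 times lower against 3.61 times, *Sfrp1* 2.99 and 4.43 against 5.56 times, *Klk1* 1.79 and 2.02 against 2.99 times and *Kng2* between 1.95 and 2.08 times in the 3 libraries. *Egf* and *Wfdc15b*, 2 of the 7 genes, were at least 4 times lower in all 3 libraries, against 0.753% of the 3588 genes with at least 50 CPM in 1 of these sums. At least 4 times higher were 3.09% of these genes and none of the 7. The 7 genes were listed for their level in distal tubule cells, and *Egf* reached the minimum only in ascending limb-like cells, so nothing is read from this count. *Slc12a1* was 12.5 and 12.4 times lower against 11.2 times, and its UMIs stood in the ratio of 1 to 9.39 and 8.65 against 8.80 with those of *Umod*, compared with 1 to 2.21 and 2.37 against 2.21 in ascending limb-like cells.

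**Figure D3:**
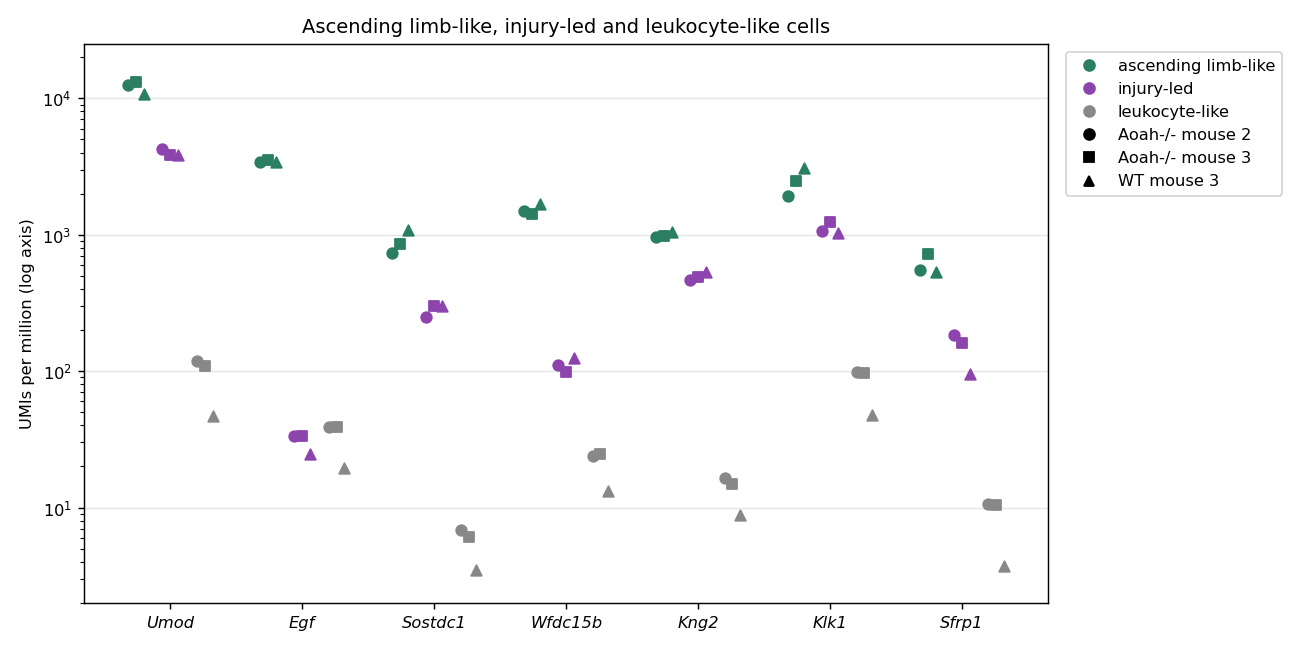
Level of the 7 genes (CPM, log axis) in ascending limb-like, injury-led and leukocyte-like cells, with 1 point per library. Injury-led cells hold 3826 to 4214 CPM of *Umod*, well above leukocyte-like cells, and 24.8 to 33.7 CPM of *Egf*, beside the 19.5 to 38.8 CPM of leukocyte-like cells.

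The share of mitochondrial UMIs moved with this comparison. It was 23.1% to 27.5% in ascending limb-like cells and 10.4% to 11.3% in injury-led cells. Among cells below 20% in both classes, *Egf* stood at 2258 and 2423 CPM against 3345 CPM in ascending limb-like cells and at 27.1 and 31.3 CPM against 25.5 CPM in injury-led cells. *Umod* stood at 9510 and 11519 CPM against 9672 CPM and at 4515 and 4079 CPM against 4014 CPM. The order of both genes was the same in every library below this limit. When the cells were clustered anew with that limit on every cell, 1479 of the ascending limb-like cells were left out, 546 joined the injury-led class, 330 kept their class, and the log2 differences were -1.66 for *Egf* and -0.22 for *Umod*.

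The injury-led class was itself mixed, and *Umod* varied across it while *Egf* stayed at or below 93.9 CPM in the subclusters drawn. A subcluster of 503 cells led by *Slc12a1* and *Cldn10* held 7455 and 6548 CPM of *Umod* in the *Aoah*-/- libraries and 10590 CPM in WT, within the 4995 to 18255 CPM of the ascending limb-like subclusters. Its *Egf* was 29.3 and 34.6 CPM against 26.1 CPM. A subcluster of 244 cells led by *Slc12a3* and *Abca13* held 2588 and 2174 CPM of *Umod* against 2719 CPM, near the level of distal convoluted tubule-like cells, with 38.6 and 29.9 CPM of *Egf* against 9.52 CPM, where distal convoluted tubule-like cells had 1399 to 2037 CPM. A subcluster of 227 cells led by *Cxcl5* and *Ccl2*, which encode chemokines for neutrophils and monocytes, held 685 and 351 CPM of *Umod* against 357 CPM.

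**Figure D4:**
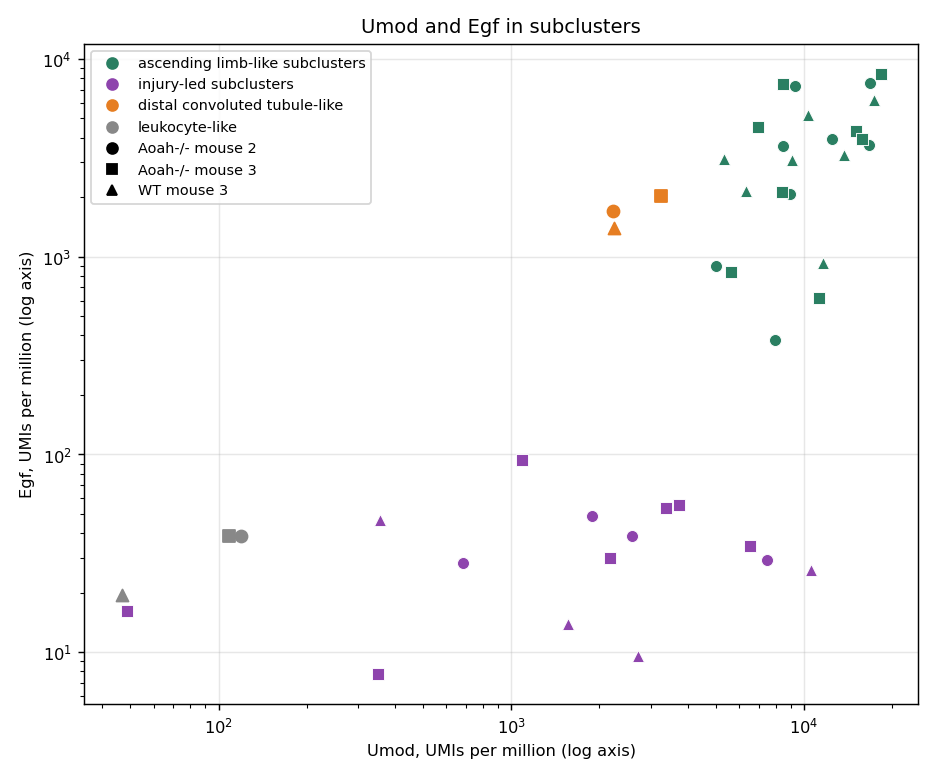
*Egf* against *Umod* (CPM, log axes) in subclusters of ascending limb-like and injury-led cells, in distal convoluted tubule-like cells and in leukocyte-like cells, with 1 point per library and subcluster. The *Slc12a1*-led injury subcluster lies at 6548 to 10590 CPM of *Umod* with 26.1 to 34.6 CPM of *Egf*, and the *Hbegf*-led ascending limb-like subcluster at 380 to 932 CPM of *Egf*.

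Ligands and receptors of the *Egf* axis were counted in the same cells. Of 12 genes of this axis, 4 reached the minimum level in the injury-led or ascending limb-like cells, and *Hbegf* alone was at least 4 times higher in injury-led cells in all 3 libraries. *Hbegf*, which encodes heparin-binding EGF-like growth factor, stood at 1410 and 1031 CPM against 1142 CPM there and at 237 and 175 CPM against 180 CPM in ascending limb-like cells. *Erbb4*, a receptor of this family, stood at 79.3 and 71.7 CPM against 59.2 CPM and at 129 and 134 CPM against 101 CPM. *Egfr*, the receptor of *Egf* itself, was counted at 16.2 and 18.6 CPM against 12.4 CPM and at 10.4 and 10.6 CPM against 12.001 CPM. Of 40 genes of BMP and WNT signals, the field in which *Sostdc1* and *Sfrp1* act, 8 reached the minimum and *Wnt4* alone was at least 4 times higher, at 54.0 and 57.5 CPM against 72.1 CPM compared with 0.985 and 0.860 CPM against 1.95 CPM. None of 3 genes of the kallikrein-kinin list passed 4-fold.

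Outside the ascending limb, *Umod* UMIs of distal convoluted tubule-like cells were set beside those of *Slc12a1* and *Egf*. In these cells there were 62.7 and 76.6 *Umod* UMIs for each *Slc12a1* UMI in the *Aoah*-/- libraries and 284 in WT, against 2.21 to 2.37 in ascending limb-like cells and 2.36 to 3.03 in leukocyte-like cells. The former ratios rest on 151 and 217 *Slc12a1* UMIs against 26 in WT. *Slc12a1* was also a marker used to name the ascending limb-like class. What part of the *Umod* in distal convoluted tubule-like cells was free RNA was not tested. The ratio of *Umod* to *Egf* UMIs was 1.30 and 1.60 against 1.61, compared with 3.62 and 3.68 against 3.15 in ascending limb-like cells. *Umod* was spread over these cells: after thinning to 1000 UMIs, 60.4% and 61.9% against 59.4% had a *Umod* UMI, where 9.84% and 10.97% against 4.13% of leukocyte-like cells did. Without thinning these shares were 82.7% and 84.4% against 78.3%, and 26.1% and 29.3% against 10.4%.

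*Klk1* was also counted in a leukocyte class. Plasmacytoid dendritic-like cells held 526 and 635 CPM in the *Aoah*-/- libraries (95% Poisson intervals 470 to 587 and 579 to 695) and 447 CPM in WT (387 to 514). The other leukocyte-like cells together held 89.9 and 80.6 CPM against 37.4 CPM. Thinned to 1000 UMIs, 31.7% and 37.2% against 32.4% of plasmacytoid dendritic-like cells had a *Klk1* UMI, compared with 3.60% to 5.07% of T lymphocyte-like cells. Without thinning the shares were 58.7% and 69.9% against 56.8%, and 8.41% to 13.5%. The median depths were 5373 to 6178 and 2587 to 3052 UMIs. There were 9.35 and 4.93 *Klk1* UMIs for each *Umod* UMI in plasmacytoid dendritic-like cells of the *Aoah*-/- libraries and 14.0 in WT, against 0.138 to 2.59 in the other leukocyte-like classes. The class held 104, 113 and 74 cells, and the other 6 genes stood at or below 129 CPM in it. Whether the *Klk1* UMIs of this class were free RNA was not tested. Among granulocyte-like cells *Aoah*-/- mouse 3 alone held 409 CPM of *Klk1*, against 74.97 and 63.5 CPM in the other libraries. Its granulocyte-like cells included a cluster of 58 cells found in no other library. That cluster was led by *S100a9* and *S100a8* and also by *S100g* and *Calb1*, which led the principal-like cluster. The part of these cells in the value was not tested.

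*Sfrp1* in fibroblast-like cells was the one level outside the tubule that was lower in both *Aoah*-/- libraries by more than 1.5-fold among the values above 50 CPM in 1 library. It was counted at 26.7 and 54.1 CPM against 110 CPM in WT. A cluster that supplied 493 of the 607 WT cells of this class held 10 and 18 cells of the *Aoah*-/- libraries, so genotype and the make-up of the class cannot be told apart here.

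In ascending limb-like, distal convoluted tubule-like and principal-like cells, none of the 7 genes was called between genotypes. A call was a level at least 1.5-fold on the same side of WT in both *Aoah*-/- libraries. None of 7 was called in ascending limb-like cells, where 1.34% of 2840 genes were called higher and 2.68% lower. None of 7 was called in distal convoluted tubule-like cells (background 0.706% higher and 1.73% lower) or in principal-like cells (0.665% and 1.09%). With shares this small, a set of 7 genes would often hold no call, so nothing is read from these counts. In ascending limb-like cells the mean of the *Aoah*-/- libraries over WT was 0.24 on the log2 scale for *Umod* (SD between the *Aoah*-/- libraries 0.05, n = 2) and 0.03 for *Egf* (SD 0.03, n = 2). *Sostdc1* and *Wfdc15b* stood below WT, at -0.46 (SD 0.16, n = 2) and -0.22 (SD 0.05, n = 2). The *Egf* value is a sum over subclusters of unequal make-up. A subcluster led by the proximal tubule gene *Kap*, with 103 and 320 cells against 50, held 2074 and 2131 CPM of *Egf* against 2142 CPM, and one led by *Ier3* and *Foxq1*, with 40 and 24 cells against 107, held 7290 and 7475 CPM against 5235 CPM. *Egf* was above WT in both *Aoah*-/- libraries in 6 of the 8 subclusters with cells of every library, and below WT in both in the *Kap*-led and the *Hbegf*-led subclusters. The 6 include the subcluster led by *Rrad* and *Fabp3*, whose WT level rests on 9 cells. Without *Aoah*-/- mouse 3, *Klk1* in ascending limb-like cells, 1919 CPM against 3095 CPM, would pass as lower.

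In distal convoluted tubule-like cells the log2 ratio was 0.42 for *Egf* (SD 0.18, n = 2), 0.15 for *Kng2* (SD 0.12, n = 2) and 0.67 for *Sfrp1* (SD 0.29, n = 2). *Sfrp1* was above WT in both libraries in this class, and in ascending limb-like, principal-like and injury-led cells as well. It was called higher in injury-led cells, at 185 and 162 CPM against 95.3 CPM (log2 ratio 0.86, SD 0.13, n = 2), 1 of 6 genes that reached the minimum there, with a background of 1.72% higher and 0.983% lower. Injury-led subclusters differed: *Sfrp1* stood at 559 and 535 CPM against 155 CPM in the *Slc12a3*-led one. A subcluster led by *Gm26917* held 79.7 and 86.8 CPM against 24.3 CPM. *Sfrp1* lay on both sides of WT in the *Slc12a1*-led subcluster (147 and 116 against 134 CPM) and the *Cxcl5*-led one (65.1 and 26.2 against 39.5 CPM). *Klk1* in principal-like cells differed by 0.06 (SD 0.05, n = 2), but this value ran from -0.15 to 0.92 under other settings and was 0.59 with classes from marker UMIs and 0.92 with a limit of 20% mitochondrial UMIs. At that limit the principal-like class also took in 331 cells of the distal convoluted tubule-like class, so the value is not one for principal-like cells alone. Without *Aoah*-/- mouse 2, *Sfrp1* in distal convoluted tubule-like cells, 1069 CPM against 588 CPM, would pass as higher. In principal-like cells, *Sfrp1* (521 CPM against 284 CPM), *Umod* (309 against 88.3 CPM) and *Egf* (99.9 against 49.95 CPM) would pass without it too.

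Signalling and transport genes of the ascending limb-like cells showed no call either: 0 of 2 tested genes of the EGF receptor axis, 0 of 3 of the kallikrein-kinin list, 0 of 6 of BMP and WNT signals and 0 of 18 of distal transport. Of 4 tested tubule injury genes, *Lcn2* and *Sox9* were called higher in the *Aoah*-/- libraries. *Lcn2* stood at 143 and 173 CPM against 60.7 CPM and *Sox9*, a transcription factor of repairing tubules, at 55.5 and 55.0 CPM against 18.5 CPM, so that *Sox9* reached the minimum of 50 CPM only through the *Aoah*-/- libraries. *Lcn2* was also called higher in leukocyte-like cells, at 45.4 and 37.03 CPM against 17.7 CPM. Leukocyte genes moved with this result: all 6 of the list were counted above WT in both *Aoah*-/- libraries in ascending limb-like cells, summed at 112.3 and 157 CPM against 50.9 CPM, with none at 0. *Cd52*, the 1 that reached the minimum, was called higher at 26.6 and 52.3 CPM against 13.3 CPM. *Kap* was called lower at 2167 and 3144 CPM against 5554 CPM. Their part in the result was not tested. The median log2 ratio of the 7 genes there was -0.10, against -0.07 over all genes tested.

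In leukocyte-like cells all 7 genes were called higher in the *Aoah*-/- libraries, where 1.44% of 10149 genes with at least 5 CPM in 1 library were called higher and 0.522% lower. *Umod* stood at 119 and 109 CPM against 46.8 CPM (log2 ratio 1.28, SD 0.09, n = 2) and *Egf* at 38.8 and 38.6 CPM against 19.5 CPM (0.99, SD 0.0059, n = 2). *Klk1* stood at 98.2 and 96.6 CPM against 47.9 CPM, and at 89.9 and 80.6 CPM against 37.4 CPM without the plasmacytoid dendritic-like cells. *Wfdc15b* stood at 23.9 and 24.6 CPM against 13.3 CPM. The values of *Kng2* were 16.6 and 14.9 CPM against 8.81 CPM, of *Sfrp1* 10.6 and 10.5 CPM against 3.70 CPM and of *Sostdc1* 6.90 and 6.09 CPM against 3.46 CPM. For each gene both *Aoah*-/- values lay above WT. *Sfrp1* and *Sostdc1* reached the minimum of 5 CPM only in the *Aoah*-/- libraries, while the other 5 genes reached it in WT too. The 7 genes were chosen with earlier results of these data known, so nothing is read from the count of calls.

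These levels were small beside those of the source cells. They came to 0.844% to 1.63% of the level in the source class in *Aoah*-/- mouse 2, to 0.714% to 1.75% in *Aoah*-/- mouse 3 and to 0.318% to 0.902% in WT. Relative to the level over all kept cells they came to 9.30% to 15.9%, 6.08% to 13.6% and 6.09% to 14.4% in the same order, and these ranges overlapped. In *Aoah*-/- mouse 2 the 0.844% and the 15.9% were values of *Klk1*. Without the plasmacytoid dendritic-like cells these values of *Klk1* were 0.772% and 14.6%. The ratio of *Umod* to *Egf* UMIs in leukocyte-like cells was 3.06 and 2.82 against 2.40. It was 3.62 and 3.68 against 3.15 in ascending limb-like cells and 1.30 and 1.60 against 1.61 in distal convoluted tubule-like cells. In injury-led cells it was 125 and 116 against 154. The ratio of *Umod* to *Slc12a1* UMIs was 2.96 and 3.03 against 2.36 in leukocyte-like cells. It was 2.21 and 2.37 against 2.21 in ascending limb-like cells, 62.7 and 76.6 against 284 in distal convoluted tubule-like cells and 9.39 and 8.65 against 8.80 in injury-led cells. From which cells this RNA came was not tested. By leukocyte class, both *Aoah*-/- libraries were above WT for *Umod*, *Egf*, *Wfdc15b* and *Kng2* in 6 of 7 classes each, for *Klk1* in 7 and for *Sfrp1* and *Sostdc1* in 5. Fewer passed the call in single classes, with *Umod* called higher in 6 of 7, *Egf* in 5, *Wfdc15b* and *Sfrp1* in 4 each, *Kng2* and *Klk1* in 2 each and *Sostdc1* in 1. Natural killer-like cells ran the other way, with 102 and 168.1 CPM of *Umod* against 223 CPM. The cells with ascending limb genes were not equally frequent in the suspensions: ascending limb-like cells made up 4.69% and 4.60% of kept cells in the *Aoah*-/- libraries and 2.77% in WT. Over all kept cells *Umod* stood at 1028 and 1223 CPM against 507 CPM (log2 ratio 1.15, SD 0.18, n = 2) and *Egf* at 277 and 340 CPM against 136 CPM (1.18, SD 0.21, n = 2). The part of this difference in the leukocyte result was not tested. The make-up of the leukocyte-like class differed too. A macrophage-like cluster led by *Saa3* and *Fn1* held 1391 and 13 cells in the *Aoah*-/- libraries against 77 in WT. The median macrophage-like cell held 3780 and 4674 UMIs against 1394. A cluster with macrophage markers that was also led by *Slc12a1* held 42 and 305 cells in the *Aoah*-/- libraries against 9 in WT. It was left unnamed for its tubule markers, so its cells were not counted as leukocyte-like. The part of this make-up and of the unnamed cluster in the leukocyte result was not tested either. *Kap*, an abundant transcript of proximal tubules, stood at 3053 and 3999 CPM in leukocyte-like cells against 4163 CPM and was not higher in the *Aoah*-/- libraries. Its level over all kept cells was lower in these libraries, at 16904 and 22433 CPM against 29236 CPM. Relative to that level, *Kap* in leukocyte-like cells came to 18.1% and 17.8% against 14.2%, above WT in both.

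**Figure D5:**
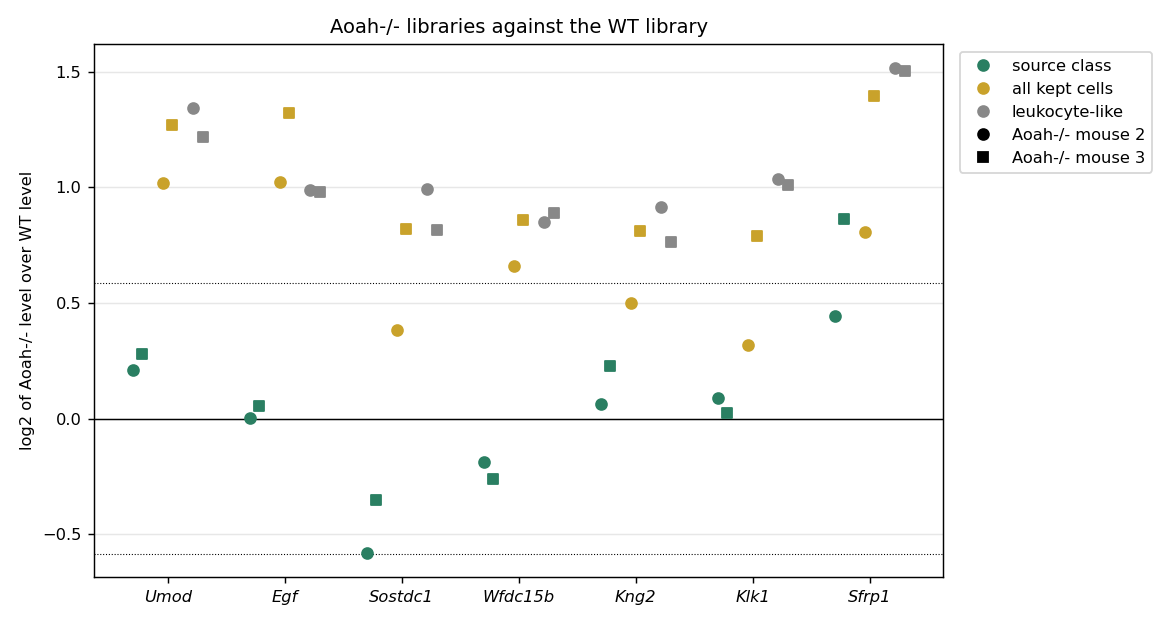
Log2 ratio of each *Aoah*-/- library to WT for the 7 genes in the source class, over all kept cells and in leukocyte-like cells, with 1 point per *Aoah*-/- library. Leukocyte-like values lie between 0.76 and 1.52 for all 7 genes, while values in the source class lie on both sides of 0, from -0.58 for *Sostdc1* to 0.86 for *Sfrp1*.

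Across 17 classes and 3 libraries, 51 points that share libraries and depth, the genes most like 6 of the 7 by Pearson's r of log2(CPM + 10) were counted among 7335 genes. For *Umod* they were *Erbb4* (r = 0.93), *Fam107a* (0.91) and *Ppp1r1a* (0.89), and for *Egf* *Wfdc15b* (0.90), *Gpx6* (0.89) and *Ppp1r1a* (0.89). *Umod* and *Egf* correlated at 0.81, below each of these. *Sostdc1* was nearest to *Tfap2b* (0.99), which encodes a transcription factor of the distal tubule, then *Kng2* (0.99) and *Pantr1* (0.97). *Kng2* was nearest to *Sostdc1* (0.99), then *Tfap2b* (0.99) and *Pantr1* (0.97). *Wfdc15b* was nearest to *Ppp1r1a* (0.93), *Nol3* (0.92) and *Mfsd4* (0.91), and *Sfrp1* to *Kng2* (0.93), *Scn4b* (0.93) and *Sostdc1* (0.92).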

How the data were processed

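Per the labels, the authors made droplet 3′ libraries and counted reads against mm10. The submitters' processing notes name Cell Ranger 3.1.0, STAR and Seurat 4.2.0, whereas the file headers name Cell Ranger 6.1.2. The deposited files hold, for 27998 genes and the barcodes that passed cell calling, whole UMI counts that were neither normalized nor pooled. How free RNA was treated is not given in the sources used here.

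Barcodes under 200 genes or above 50% mitochondrial UMIs were removed (scanpy 1.11.5), which were 16.3% to 21.1% per library. The 3 libraries were clustered together (2000 variable genes, 50 principal components, 15 neighbours, Leiden resolution 1, igraph 0.11.9) without the 7 genes, *Aoah*, *Cd74* and MHC II genes. Clusters were named from marker lists. A leukocyte cluster of 356 cells with strong tubule markers was left unnamed. Larger clusters stayed unnamed because none of the markers they matched best was among their 10 leading genes. They held 5535 and 4451 cells nearest to proximal tubule cells and 1335 cells nearest to endothelial cells. Unnamed cells made up 20.7% and 11.6% of kept cells in the *Aoah*-/- libraries and 27.5% in WT. Doublets were scored with Scrublet and kept, since 544, 0 and 201 cells were called and it had not worked in *Aoah*-/- mouse 3. The 7 genes and all lists were chosen with earlier results of these data known.

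Counts were summed per library and class and expressed per 1000000 UMIs (CPM). Exact Poisson and Clopper-Pearson intervals (95%) cover counting error only. Genes were called at 1.5-fold on CPM plus 1 among genes with at least 50 CPM in 1 library (5 in leukocyte-like cells). The calling step was run on simulated counts with changes larger than 1.5-fold and with counting noise only. It was not tested at 1.5-fold or with spread between mice. Named genes were the 7, the 3 most like each, and list genes that were called or that a result turns on. The genes most like *Klk1* and 2 list counts are not reported here. Split cells and subclusters (resolution 0.5) were described after the data were seen. Promoter windows came from RefSeq. Alternatives are given in the closing section.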

Additional observations from a re-analysis of the deposited data

Results flagged for a closer look

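*Sostdc1* stood below WT in both *Aoah*-/- libraries in ascending limb-like cells (log2 ratio -0.46) and above WT in both in leukocyte-like cells (0.91), which is why it is listed here. The difference between these classes was not tested. The make-up of the ascending limb-like class differed too: the subcluster with the highest *Sostdc1* held 40 and 24 cells against 107 in WT, and *Sostdc1* there stood at 2112 and 2066 CPM against 1788 CPM, above WT. The part of the make-up in the difference was not tested. *Wfdc15b* lay on opposite sides of WT in the same way, at -0.22 in ascending limb-like cells and 0.87 in leukocyte-like cells, and this difference was not tested either. With the limit of 20% mitochondrial UMIs, *Wfdc15b* stood at 0.36 in ascending limb-like cells.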

How the results depend on the processing

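Of 112 values of the 7 genes in leukocyte-like cells under alternative settings, 112 kept the *Aoah*-/- mean above WT (log2 0.25 to 2.18). In the source class, 95 of 110 stayed under 1.5-fold in size (-0.58 to 0.92). There *Klk1* (-0.15 to 0.92) kept its direction in 11 of 16, *Egf* (-0.02 to 0.12) in 14 and *Wfdc15b* (-0.33 to 0.36) in 15. No paired analysis was possible because the groups share only the replicate number 3. *Umod* in ascending limb-like cells (0.24) was 0.11 with classes from marker UMIs, 0.18 without the highest Scrublet scores, 0.31 relative to non-mitochondrial UMIs and 0.15 without cells that had leukocyte UMIs. *Umod* in leukocyte-like cells (1.28) was 1.43 at 20% mitochondrial UMIs and 1.81 in all barcodes. With a minimum of 1672 UMIs per cell in every library it was 1.47, and with 30 components 1.48. It was 0.88 with libraries clustered alone, 2.07 with marker classes, 1.47 without high Scrublet scores and 1.45 with the 7 genes clustered. *Egf* there (0.99) was, in that order, 1.38, 1.69, 1.23, 1.29, 0.87, 1.68, 1.30 and 1.24. It was 1.21 at 500 genes, 1.05 at resolution 2, 0.81 as a per-cell mean, 0.96 relative to non-mitochondrial UMIs, 1.30 without cells with distal marker UMIs and, chosen after seeing the data, 0.93 without plasmacytoid dendritic-like cells. The 7 calls in leukocyte-like cells were 2 at 2-fold and 4 either with libraries clustered alone or as a per-cell mean, and in ascending limb-like cells 0 to 1 gene was called with 1 *Aoah*-/- library left out. Against ascending limb-like cells, *Egf* in injury-led cells (-6.84 from the mean levels) was -1.66 at 20% mitochondrial UMIs, -6.44 as a per-cell mean, -7.36 with the 7 genes clustered, -7.10 relative to non-mitochondrial UMIs and -7.14 without cells with leukocyte UMIs. *Umod* (-1.60) was -0.22 at 20%, -1.88 with libraries clustered alone and -1.86 relative to non-mitochondrial UMIs. At 20%, 1479 ascending limb-like cells were left out and 546 joined the injury-led class. No distal convoluted tubule-like class could be named there, and 331 of its cells joined the principal-like class. These injury-led alternatives were chosen after seeing the data. The share of leukocyte-like cells with a *Umod* UMI (6.28 points higher at 1000 UMIs) differed by 17.3 points without thinning, 3.46 at 500 UMIs and 10.0 at 2000 UMIs. Sums under 3 UMIs give no level here, but the counts by leukocyte class include such sums.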

Other observations

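Barcodes left out by the filters on genes and mitochondrial UMIs also held these transcripts. *Umod* stood there at 521 and 475 CPM in the *Aoah*-/- libraries and 268 CPM in WT, and *Egf* at 295 and 236 CPM against 147 CPM. They carried 11.9% and 8.38% against 12.6% of all *Umod* UMIs and 22.2% and 14.1% against 22.7% of all *Egf* UMIs.

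*Wfdc15b* was counted outside the distal tubule in urothelial-like cells, at 127 and 129 CPM against 108 CPM, where 0.767 and 1.05 *Umod* UMIs stood beside each *Wfdc15b* UMI against 0.508 in WT, compared with 6.38 to 9.27 in ascending limb-like cells.

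In erythroid-like cells *Egf* stood at 338 and 675 CPM in the *Aoah*-/- libraries and 22.04 CPM in WT. *Slc12a1* was among the 10 leading genes of this cluster, and 1200 of its 1638 cells came from *Aoah*-/- mouse 3.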
